A study of Mus musculus with 24 samples.

Results

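The RNA of 40 chaperone and folding genes, the heat shock proteins of the cytosol and mitochondria and the chaperones of the endoplasmic reticulum (ER), was followed through the depletion of 2 ubiquitin ligase receptors in C2C12 cells, an established mouse myoblast line. The genes came from a named list, and all 40 were found among the 36047 genes of the count tables and passed the filter on low counts, which 14584 genes passed. The cells were undifferentiated and subconfluent and were taken 48 h after transfection. There were 4 groups of 3 libraries: siFem1b/Keap1, with siRNAs against both Fem1b and Keap1; siFem1b, with the siRNA against Fem1b; siKeap1, with the siRNA against Keap1; and siCont, with a non-targeting siRNA. KEAP1 and FEM1B are the substrate receptors of CUL3 and CUL2 ubiquitin ligases. KEAP1 directs the degradation of NRF2, which drives antioxidant genes, and the title of the series concerns how cells sense reductive stress. A single siRNA sequence was used against each gene, so effects of a sequence on other transcripts and effects of losing its target cannot be told apart within these groups. The labels do not say whether the 3 libraries of a group came from separate cultures, and a p-value here reflects only how far such libraries scatter, which may be technical.

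Chaperones hold and refold proteins that have not reached or have lost their structure. In the cytosol, HSP70 works with J-domain proteins that bring it clients, with HSP110 proteins that exchange its nucleotide, and with HSP90, and the transcription factor HSF1 raises many of these genes when misfolded protein builds up. In mitochondria, an HSP70, the HSP60 and HSP10 chamber and the Lon protease handle imported proteins, and in the ER the HSP70 BiP, the lectins calnexin and calreticulin and the protein disulfide isomerases fold secreted proteins, under the control of the unfolded protein response. Disulfide bonds form in the ER by oxidation, which ties this compartment to the redox state of the cell.

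The libraries held 31.9 M to 43.0 M counts. Fem1b averaged 12.7 ± 1.33 CPM in siFem1b/Keap1, 13.2 ± 0.424 CPM in siFem1b, 102 ± 4.06 CPM in siKeap1, 96.9 ± 3.97 CPM in siCont (CPM, the counts of a gene as a share of its library's total, here after TMM scaling between libraries; SD, n = 3 each). Keap1 averaged 9.38 ± 0.189 CPM in siFem1b/Keap1, 59.2 ± 3.62 CPM in siFem1b, 9.98 ± 1.3 CPM in siKeap1, 61.7 ± 1.4 CPM in siCont. Each siRNA lowered its own target, with log2 fold changes against siCont of -2.87 for Fem1b with siFem1b and -2.63 for Keap1 with siKeap1, and the gene it did not target passed no test in those groups. Of the myoblast markers, all 7 were measured and summed to 7409 to 7614 CPM with siFem1b/Keap1, 8424 to 8736 with siFem1b, 7100 to 7189 with siKeap1 and 9230 to 9422 with siCont. Most members did not follow that sum, since 4 were higher and 3 lower with siFem1b/Keap1 and 6 higher and 1 lower with siFem1b, while with siKeap1 4 passed, each lower. Differentiated muscle markers summed to 189 to 198 CPM with siFem1b/Keap1, 305 to 331 with siFem1b, 19.8 to 21.9 with siKeap1 and 20.7 to 24.9 with siCont, and 14 of the 14 tested were higher with siFem1b. The 6 macrophage and leukocyte markers summed to 19.6 to 20.8 CPM with siFem1b/Keap1, 11.4 to 12.4 with siFem1b, 17.4 to 18.9 with siKeap1 and 11.1 to 12.8 with siCont. Of these, Adgre1 was at 0 in every library, and 2, 1 and 3 of the 3 tested were higher with siFem1b/Keap1, siFem1b and siKeap1. Beside all these marker counts, 33.8%, 30% and 18.4% of all genes tested were higher in the same order of groups. The shares of all genes that were lower were 33.7%, 32% and 23.8%. The 5 fibroblast markers summed to 18.3 to 20.7 CPM with siFem1b/Keap1, 27.4 to 30.9 with siFem1b, 11.7 to 13.1 with siKeap1 and 9.65 to 10.4 with siCont. The 4 endothelial markers summed to no more than 2.14 CPM. The 7 epithelial markers summed to 146 to 164 CPM with siFem1b/Keap1, 82.2 to 90.4 with siFem1b, 102 to 108 with siKeap1 and 42.5 to 47.5 with siCont, led by Krt19 and Krt14, while Cdh1 stayed below 5 CPM on average. The part of these shifts in the chaperone results was not tested, and in bulk RNA fewer cells of a type and less RNA per cell cannot be told apart.

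The most abundant chaperone RNAs per length in siCont cells were Hsp90ab1, a constitutive cytosolic HSP90, at 2481 ± 69.3 TPM (TPM, the deposited abundance corrected for transcript length; SD, n = 3), Hspb1, a small heat shock protein, at 2118 ± 98.4 TPM, and Hspa8, the constitutive cytosolic HSP70, at 1980.1 ± 62.6 TPM. The siCont libraries of Hsp90ab1 lay above those of the other 2, while those of Hspb1 and Hspa8 overlapped. With siFem1b/Keap1 and siFem1b, Hspb1 was the highest of the 3, at 2525 ± 152 TPM and 2308 ± 160 TPM. The TPM of Hspa8 leaves out near-identical copies, which held 45.9% of the counts of Hspa8 and its copies, as given below. The rank of Hspa8 among the 3 therefore depends on where those reads belong. In siCont cells Hsp90aa1 followed at 1083 ± 59.4 TPM and the ER calcium-binding lectin Calr at 825 ± 9.31 TPM. At the other end stood Hspa1a at 1.82 ± 0.427 TPM, the ER J-domain protein Dnajb9 at 9.09 ± 2.04 TPM, and Sdf2l1, an ER cofactor of BiP, at 26.5 ± 0.427 TPM. The stress-inducible HSP70 genes Hspa1a and Hspa1b were low, with 0.0567% and 0.938% of the summed TPM of the cytosolic HSP70 system. Hspa8, without its copies, held 61.8% of that sum. Libraries of a group were close to one another, with a pooled SD of log2 CPM within groups between 0.0209 for P4hb and 0.164 for Hspa1a, and a median of 0.0475 over the 40 genes.

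**Figure D1:**
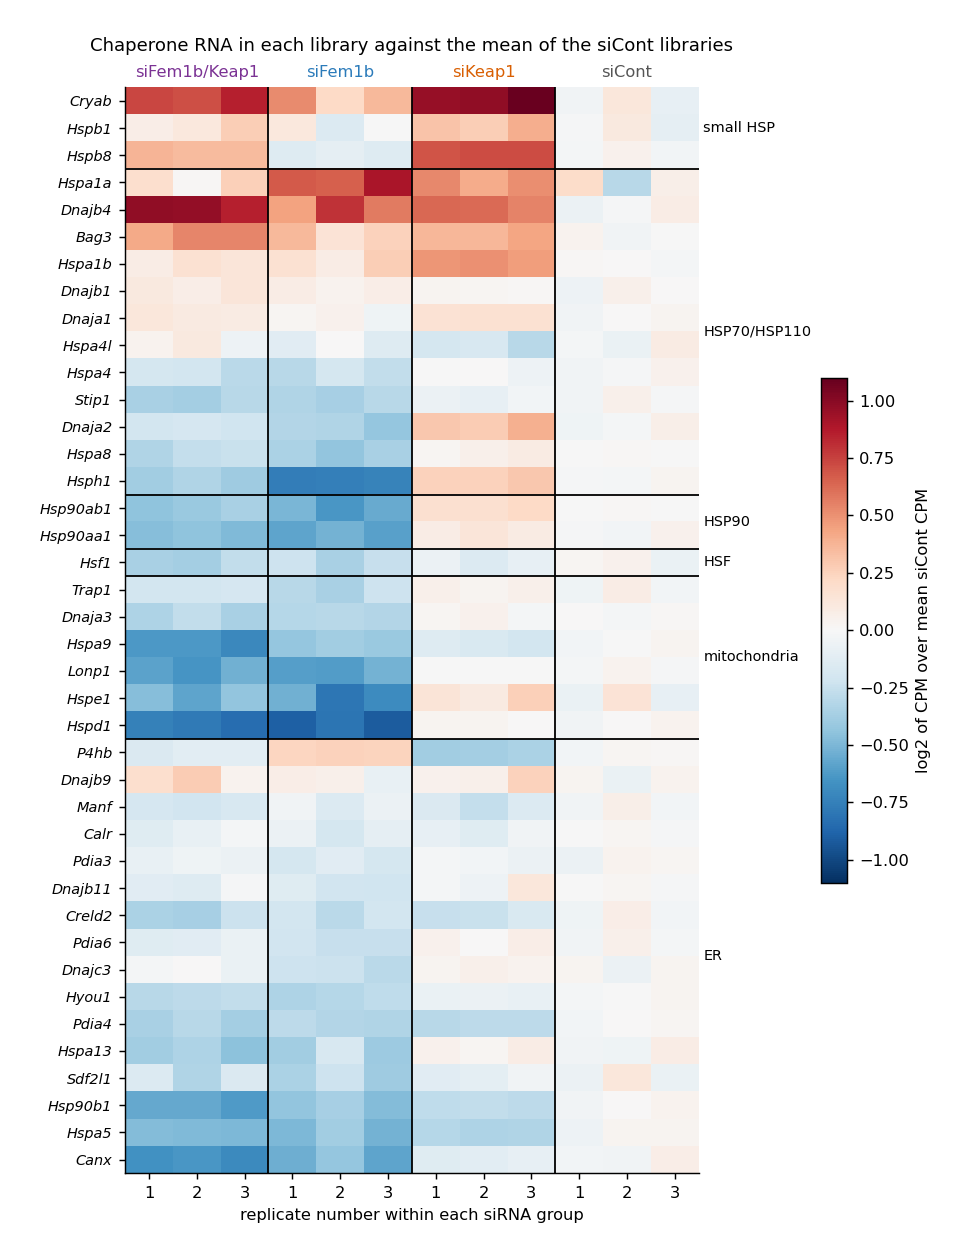
Heat map of the 40 chaperone genes (rows, by compartment) in the 12 libraries (columns, by siRNA group); the colour gives log2 of CPM over the mean CPM of the siCont libraries. The 6 mitochondrial rows and 13 of the 16 ER rows are blue in all 6 siFem1b/Keap1 and siFem1b libraries. The share of all genes with that pattern was not counted. By the test, 33.7% of all genes were lower with siFem1b/Keap1 and 32% with siFem1b. Rows above the siCont mean in all 9 libraries with a targeting siRNA include Cryab, Dnajb4, Bag3 and, more faintly, Hspa1b.

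Most chaperone genes fell when Fem1b was depleted, with or without Keap1, whereas Keap1 depletion alone raised a set of cytosolic ones and lowered a set of ER ones. With siFem1b/Keap1 against siCont, 7 of the 40 genes were higher and 25 lower (edgeR's quasi-likelihood test, adjusted p under 0.05), or 17.5% and 62.5%, beside 33.8% higher and 33.7% lower among all genes tested. The median log2 fold change was -0.21 beside 0.01 for all genes. With siFem1b against siCont, 6 were higher and 28 lower, or 15% and 70.0% beside 30% and 32% of all genes, with a median of -0.27 beside -0.01. With siKeap1 against siCont, 12 were higher and 9 lower. The share higher was 30.0% beside 18.4% of all genes, the share lower was 22.5% and near the 23.8% of all genes, and the median was 0.02 beside -0.02. These 3 comparisons share the siCont libraries. Scaling by library totals alone shifted the median of all genes by 0.123 for siFem1b/Keap1 against siCont, and there it gave 11 chaperone genes higher and 19 lower.

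**Figure D2:**
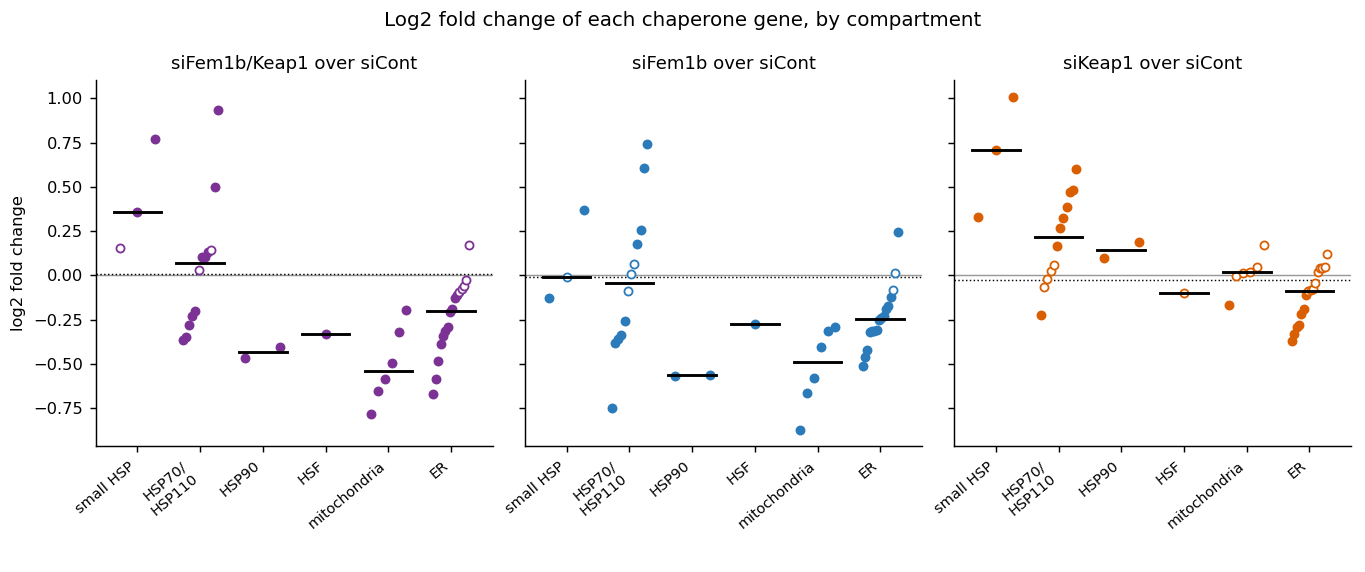
Log2 fold change of each chaperone gene (points) by compartment (x axis) for siFem1b/Keap1, siFem1b and siKeap1 over siCont; filled points passed an adjusted p of 0.05, open points did not, bars are compartment medians, and the dotted line is the median of all genes. All 6 mitochondrial genes and both HSP90 genes lie below 0 with siFem1b/Keap1 and siFem1b, and all 3 small heat shock proteins lie above 0 with siKeap1.

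The deposited TPM was also summed over the genes of each compartment, as a description. The 6 mitochondrial genes summed to 70.2% of the siCont level with siFem1b/Keap1, 71.3% with siFem1b and 100.4% with siKeap1. Both HSP90 genes came to 80.4% with siFem1b/Keap1, 74.2% with siFem1b and 111% with siKeap1, and the 16 ER genes to 87.3%, 93.7% and 87.1% in the same order of groups. The 3 small heat shock proteins lay above siCont, at 130% with siFem1b/Keap1, 114% with siFem1b and 138% with siKeap1. The cytosolic HSP70 system, dominated by Hspa8, lay at 93.4% with siFem1b/Keap1, 87.6% with siFem1b and 103% with siKeap1. That sum leaves out the near-identical copies of Hspa8. The 3 libraries of each of these sums did not overlap the siCont libraries, except for the HSP70 system and the mitochondrial genes with siKeap1. TPM is a share of all RNA and is not scaled by TMM, so these percentages are levels and not the fold changes tested here. Several of them depended on the unit. As a log2 ratio of siFem1b over siCont, the small heat shock proteins were at 0.19 by TPM and 0.047 by TMM-scaled CPM, and the ER genes at -0.09 by TPM and -0.23 by CPM. For siFem1b/Keap1 over siCont the ER genes were at -0.20 by TPM and -0.30 by CPM, and the HSP70 system at -0.10 and -0.17. For siKeap1 over siCont the HSP70 system was at 0.05 by TPM and 0.092 by CPM, and the mitochondrial genes changed sign, at 0.0055 and -0.040.

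The small heat shock proteins, which bind unfolding proteins without ATP, held the largest log2 fold change of the 40 genes against siCont. Cryab, the alpha-B crystallin abundant in muscle, had 303, 297 and 328 CPM in the siFem1b/Keap1 libraries, 260.0, 211 and 232 CPM with siFem1b, 353, 358 and 385 CPM with siKeap1 and 176, 198 and 170.4 CPM with siCont. Its lowest library of each targeting group exceeded all 3 siCont libraries. The log2 fold change against siCont was 0.77 ± 0.07 (adjusted p = 4.7e-07) with siFem1b/Keap1, 0.37 ± 0.07 (adjusted p = 6.1e-04) with siFem1b and 1.01 ± 0.07 (adjusted p = 9.8e-08) with siKeap1 (SE throughout). Hspb8, which delivers clients to the HSP70 cochaperone BAG3, had 103, 101 and 101 CPM in the siFem1b/Keap1 libraries, 71.7, 74.0 and 71.7 CPM with siFem1b, 128, 130.3 and 130.1 CPM with siKeap1 and 78.0, 81.8 and 77.7 CPM with siCont. All siFem1b/Keap1 and siKeap1 libraries were above siCont, and all siFem1b libraries were below it. Its log2 fold changes were 0.36 ± 0.04 (adjusted p = 5.7e-08), -0.13 ± 0.04 (adjusted p = 0.006) and 0.71 ± 0.04 (adjusted p = 1.5e-11) in the same order, and the fall with siFem1b was lost under 3 of 22 alternatives. Hspb1, the mouse HSP27 homologue, had 1015, 1041 and 1164 CPM in the siFem1b/Keap1 libraries, 1046, 867 and 958 CPM with siFem1b, 1198, 1160.0 and 1272 CPM with siKeap1 and 954, 1035 and 898 CPM with siCont. Its 3 siKeap1 libraries lay above all siCont libraries and its other groups overlapped siCont, and it rose with siKeap1 by 0.33 ± 0.07 (adjusted p = 0.002), while its values of 0.16 with siFem1b/Keap1 and -0.01 with siFem1b did not pass. Beside these results, the differentiated muscle markers were 13 higher and 0 lower of 14 with siFem1b/Keap1, 14 higher with siFem1b, and 2 higher and 7 lower with siKeap1, and their part in the result was not tested. Of all genes tested, 33.8% were higher and 33.7% lower with siFem1b/Keap1, 30% and 32% with siFem1b, and 18.4% and 23.8% with siKeap1.

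Of the 12 genes of the cytosolic HSP70 and HSP110 system, 5 were higher and 5 lower with siFem1b/Keap1, and 4 and 5 with siFem1b. With siKeap1, 7 were higher and 1 lower. Among all genes tested, 33.8% were higher and 33.7% lower with siFem1b/Keap1, and 30% and 32% with siFem1b. With siKeap1 those shares were 18.4% and 23.8%, and no test compared the counts with them. With library totals alone the counts were 6 higher and 4 lower with siFem1b/Keap1 and 6 higher and 5 lower with siFem1b. Hsph1, the HSP110 that exchanges the nucleotide of HSP70, stood out for opposite directions. It had 212, 219 and 211 CPM in the siFem1b/Keap1 libraries, 163, 164 and 166 CPM with siFem1b, 330.0, 329 and 339.6 CPM with siKeap1 and 274, 273 and 282 CPM with siCont. The 4 groups did not overlap, with siKeap1 at the top and siFem1b at the bottom. Its log2 fold changes against siCont were -0.37 ± 0.03 (adjusted p = 1.4e-08) with siFem1b/Keap1, -0.75 ± 0.03 (adjusted p = 1.1e-12) with siFem1b and 0.27 ± 0.03 (adjusted p = 2.9e-06) with siKeap1. Dnaja2, a J-domain protein that brings clients to HSP70, followed the same order, with -0.20, -0.36 and 0.33, and all 3 passed. The call with siFem1b/Keap1 was lost with library totals alone.

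Dnajb4 and Bag3 rose in all 3 targeting groups, as did Cryab, given above, and Hspa1b, given below. Dnajb4, a J-domain protein of the class that stimulates HSP70, had 80.9, 80.3 and 74.1 CPM in the siFem1b/Keap1 libraries, 55.9, 71.1 and 60.9 CPM with siFem1b, 63.6, 63.2 and 59.9 CPM with siKeap1 and 39.2, 40.6 and 43.4 CPM with siCont. No library of a targeting group reached down to siCont, and the log2 fold changes were 0.93 ± 0.07 (adjusted p = 7.0e-09), 0.61 ± 0.07 (adjusted p = 1.8e-06) and 0.60 ± 0.07 (adjusted p = 4.8e-06) with siFem1b/Keap1, siFem1b and siKeap1. Bag3, a nucleotide exchange factor that links HSP70 to autophagy and is needed in muscle, had 161, 174 and 174 CPM in the siFem1b/Keap1 libraries, 154, 134 and 143 CPM with siFem1b, 155, 155 and 162 CPM with siKeap1 and 124, 117 and 119.9 CPM with siCont. Again every library of a targeting group lay above siCont, with log2 fold changes of 0.50 ± 0.05 (adjusted p = 3.1e-08), 0.26 ± 0.05 (adjusted p = 1.4e-04) and 0.39 ± 0.05 (adjusted p = 2.7e-06). Stip1, the HOP protein that joins HSP70 to HSP90, had 313, 309 and 323 CPM in the siFem1b/Keap1 libraries, 318, 310.4 and 324 CPM with siFem1b, 382, 375 and 392 CPM with siKeap1 and 389.9, 415 and 396 CPM with siCont. It fell by 0.35 with siFem1b/Keap1 (adjusted p = 1.0e-07) and by 0.34 with siFem1b (adjusted p = 2.1e-07) on the log2 scale, and its -0.06 with siKeap1 did not pass.

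The stress-inducible pair Hspa1a and Hspa1b shares most of its sequence, and the near-identical copies split the reads unevenly, with 6.86% of their summed counts on Hspa1a, so the pair is more certain than either gene. Hspa1b had 58.2, 61.9 and 60.4 CPM in the siFem1b/Keap1 libraries, 61.8, 58.1 and 66.2 CPM with siFem1b, 77.1, 77.7 and 75.5 CPM with siKeap1 and 55.6, 55.2 and 54.1 CPM with siCont. The siKeap1 libraries stood above every other library. Its log2 fold changes were 0.13 ± 0.05 (adjusted p = 0.018) with siFem1b/Keap1, 0.17 ± 0.05 (adjusted p = 0.0029) with siFem1b and 0.48 ± 0.05 (adjusted p = 8.6e-08) with siKeap1, of which the call with siFem1b/Keap1 was lost under 3 of 22 alternatives. Hspa1a, at the floor of the set, had 4.07, 3.62 and 4.3 CPM in the siFem1b/Keap1 libraries, 5.73, 5.66 and 6.7 CPM with siFem1b, 5.18, 4.75 and 5.12 CPM with siKeap1 and 4.12, 2.9 and 3.74 CPM with siCont. With both genes added, the log2 fold changes were 0.13 with siFem1b/Keap1 (adjusted p = 0.017), 0.22 with siFem1b (adjusted p = 0.00042) and 0.48 with siKeap1 (adjusted p = 8.1e-08), beside 0.14, 0.74 and 0.47 for Hspa1a alone. The J-domain proteins Dnaja1 and Dnajb1, which are induced with the pair in heat-shocked cells, had smaller values. Dnaja1 was at 0.10, 0.01 and 0.17 with siFem1b/Keap1, siFem1b and siKeap1, and Dnajb1 at 0.10, 0.06 and 0.02. Dnaja1 passed with siFem1b/Keap1 (adjusted p = 0.014) and siKeap1 (adjusted p = 7.8e-04), and Dnajb1 with siFem1b/Keap1 (adjusted p = 0.022). The calls with siFem1b/Keap1 were lost under 3 of 22 and 5 of 22 alternatives for Dnaja1 and Dnajb1.

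Hspa8 carries a further uncertainty in its counts. Of all counts on Hspa8 and its near-identical copies (at least 95% identity over at least 50% of the copy), 45.9% had been assigned to copies, nearly all to Gm15459, a processed pseudogene on chromosome 5 (chr5:5781615-5783555, reverse strand, GRCm38), which was singled out after its values were seen. The Gm15459 share of both genes ran between 42.7% and 48.8% over the 12 libraries. Hspa8 itself had 1473, 1539.7 and 1556 CPM in the siFem1b/Keap1 libraries, 1450.2, 1364 and 1439.6 CPM with siFem1b, 1873, 1920.5 and 1971 CPM with siKeap1 and 1843, 1862 and 1838 CPM with siCont, and all siFem1b/Keap1 and siFem1b libraries were below all others. It fell by 0.28 with siFem1b/Keap1 (adjusted p = 2.6e-06) and by 0.38 with siFem1b (adjusted p = 5.8e-08) on the log2 scale, and was at 0.06 with siKeap1 (adjusted p = 0.25). With the copies added, the values were -0.28, -0.41 and 0.01, with the same calls, while the level of Hspa8 RNA depends on where those reads belong. Apart from Hspa8 and the pair Hspa1a and Hspa1b, the chaperone genes had at most 0.212% of their counts on such copies. The HSP110 relatives Hspa4 and Hspa4l differed from each other: Hspa4 was at -0.23 with siFem1b/Keap1 and -0.26 with siFem1b, both passing, and -0.02 with siKeap1, whereas Hspa4l was at 0.03 and -0.09, not passing, and fell to -0.23 with siKeap1 (adjusted p = 0.0024).

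**Figure D3:**
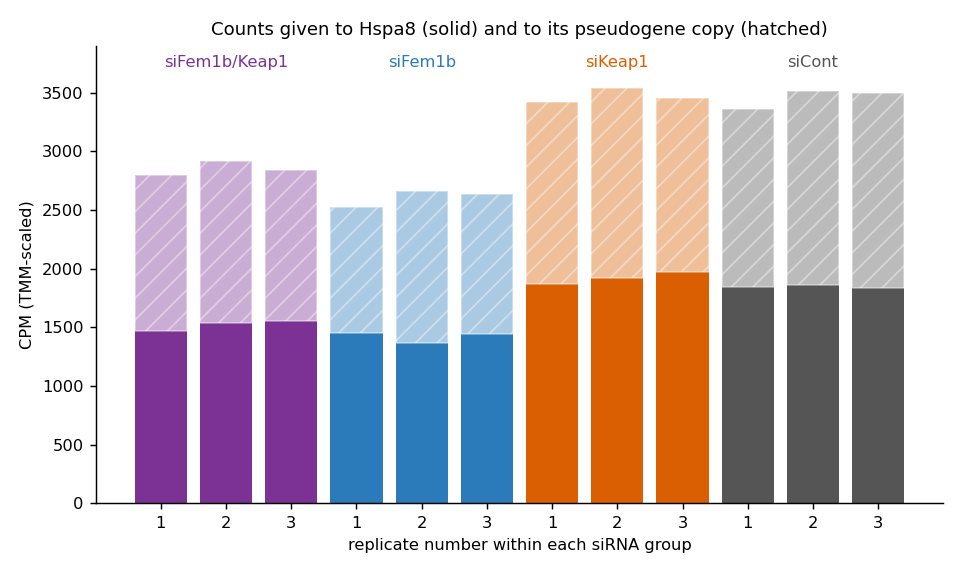
TMM-scaled CPM (y axis) given to Hspa8 (solid) and to the pseudogene Gm15459 (hatched, stacked on top) in each of the 12 libraries (x axis, by siRNA group). The pseudogene takes 42.7% to 48.8% of each stack, and the stacks of the 6 siFem1b/Keap1 and siFem1b libraries are all lower than those of the 6 other libraries.

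Both cytosolic HSP90 genes fell with Fem1b depletion and were slightly higher with Keap1 depletion. Hsp90ab1, which folds kinases and steroid receptors, had 2919, 2991 and 3098 CPM in the siFem1b/Keap1 libraries, 2803, 2559 and 2714 CPM with siFem1b, 4497, 4486 and 4618 CPM with siKeap1 and 3965, 4006 and 3958 CPM with siCont. Its log2 fold changes were -0.41 ± 0.04 (adjusted p = 3.3e-08) with siFem1b/Keap1, -0.56 ± 0.04 (adjusted p = 5.3e-10) with siFem1b and 0.19 ± 0.04 (adjusted p = 7.1e-04) with siKeap1. Hsp90aa1, the inducible partner, had 1533, 1559 and 1510.2 CPM in the siFem1b/Keap1 libraries, 1412, 1474 and 1403 CPM with siFem1b, 2238, 2321 and 2247 CPM with siKeap1 and 2094, 2069 and 2186 CPM with siCont. For both genes the groups did not overlap siCont. Hsp90aa1 was at -0.46 ± 0.04 (adjusted p = 1.9e-09), -0.57 ± 0.04 (adjusted p = 2.0e-10) and 0.10 ± 0.04 (adjusted p = 0.036) in the same order, and the call with siKeap1 was lost under 9 of 22 alternatives. Hsf1, the heat shock transcription factor, had 68.9, 67.9 and 73.0 CPM in the siFem1b/Keap1 libraries, 75.5, 68.9 and 73.8 CPM with siFem1b, 84.4, 79.6 and 82.7 CPM with siKeap1 and 89.4, 91.0 and 84.0 CPM with siCont. It fell to -0.33 ± 0.05 (adjusted p = 3.3e-06) with siFem1b/Keap1 and -0.28 ± 0.05 (adjusted p = 3.7e-05) with siFem1b, while the -0.10 with siKeap1 did not pass (adjusted p = 0.091). RNA levels do not measure the activity of HSF1, which is regulated as a protein.

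**Figure D4:**
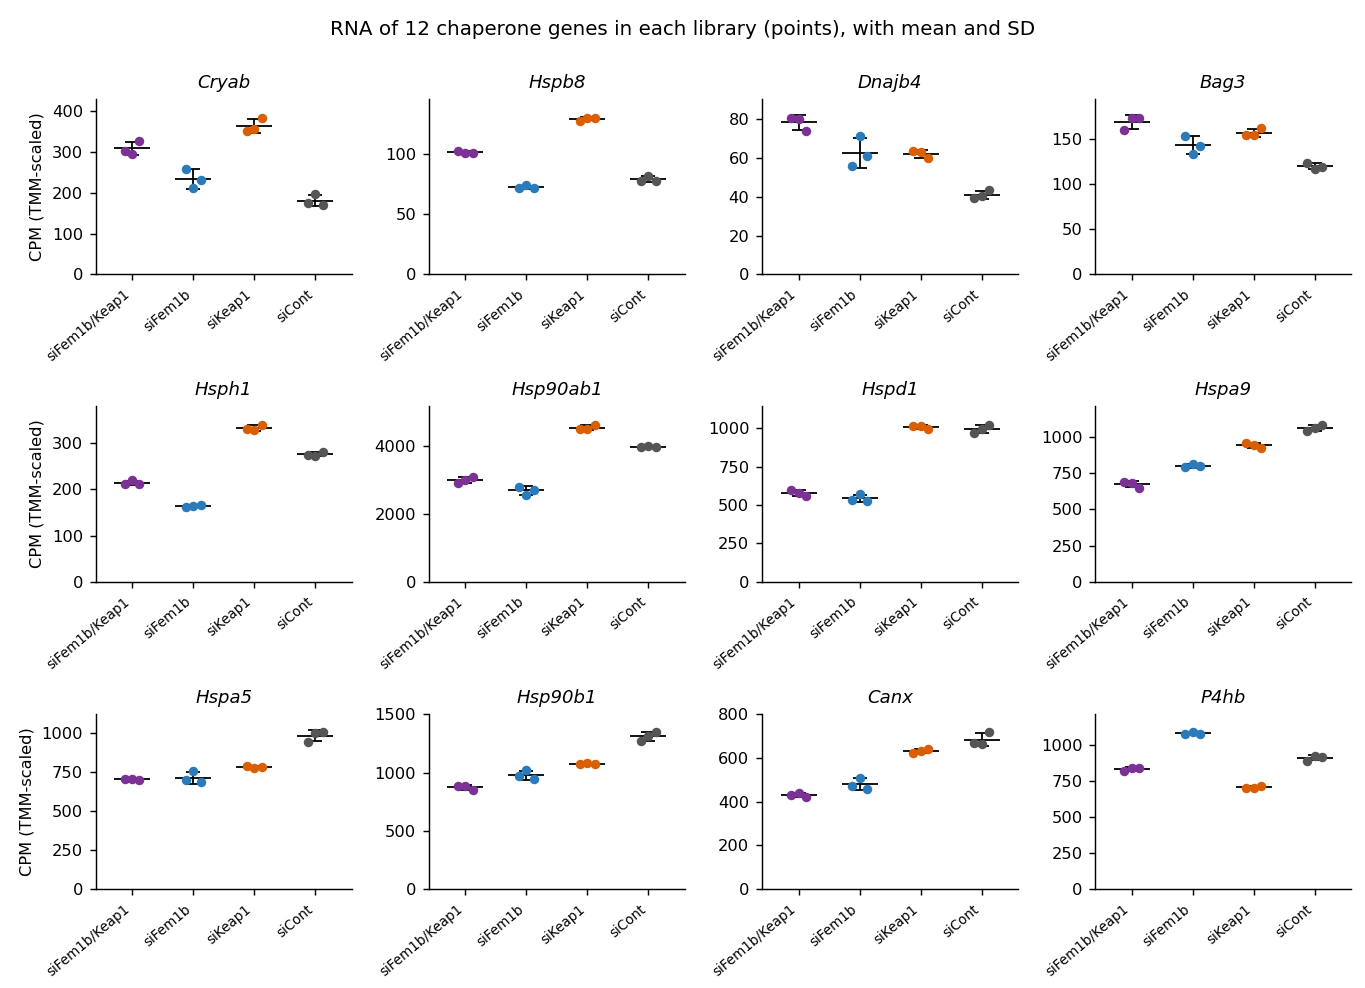
TMM-scaled CPM (y axis, from 0) of 12 chaperone genes in each library (points), with the mean (long bar) and SD (whiskers) of the 3 libraries of each siRNA group (x axis). Hspd1 lies between 527 and 596 CPM in the siFem1b/Keap1 and siFem1b libraries and between 968 and 1021 CPM in the others, and P4hb is highest with siFem1b and lowest with siKeap1.

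The mitochondrial chaperones fell as a group with Fem1b depletion. All 6 genes were lower with siFem1b/Keap1 and with siFem1b, and 1 of 6 with siKeap1. Among all genes tested, 33.7%, 32% and 23.8% were lower in the same order of groups. With library totals alone, 5, 6 and 1 of the 6 were lower and 0, 0 and 1 higher. Hspd1, the HSP60 subunit of the folding chamber, had 596, 579 and 558 CPM in the siFem1b/Keap1 libraries, 535, 570.4 and 527 CPM with siFem1b, 1015, 1016 and 996 CPM with siKeap1 and 968, 997 and 1021 CPM with siCont. Every library with siFem1b, alone or combined, was below every other library, and the log2 fold changes were -0.78 ± 0.04 (adjusted p = 2.9e-12), -0.87 ± 0.04 (adjusted p = 1.2e-12) and 0.02 ± 0.04 (adjusted p = 0.72). Hspe1, the HSP10 lid of the same chamber, had 169, 156 and 173 CPM in the siFem1b/Keap1 libraries, 162, 135 and 145 CPM with siFem1b, 258, 249.8 and 279.5 CPM with siKeap1 and 222, 259 and 219 CPM with siCont. Its siFem1b/Keap1 and siFem1b libraries also lay below all others, at -0.49 ± 0.08 (adjusted p = 6.0e-05), -0.67 ± 0.08 (adjusted p = 4.5e-06) and 0.17 ± 0.08 (adjusted p = 0.091). Hspd1 (chr1:55077835-55088243) and Hspe1 (chr1:55088132-55091307, GRCm38) are neighbours transcribed in opposite directions from a shared region. The bases of that region that hold a heat shock element of 3 units, the binding motif of HSF1, are shown. Both genes have the motif in the 250 bases before a RefSeq start (GRCm38.p6). For Hspd1 that start is an alternative one, and the motif lies within the gene span given above. The promoter window of the other Hspd1 start (chr1:55088194-55088493) had no match. The match is in capitals on the strand of each gene.
Hspd1 (chr1:55088051-55088084, reverse strand): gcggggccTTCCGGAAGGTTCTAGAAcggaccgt
Hspe1 (chr1:55088051-55088084, forward strand): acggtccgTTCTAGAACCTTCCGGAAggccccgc
The letters searched were GAANNTTCNNGAA and TTCNNGAANNTTC on both strands, and the capitals hold 2 overlapping matches. Of the 31 chaperone genes with a RefSeq promoter, these 2 had a match, in the same bases. By promoter this was 2 of 37, beside 0.466% of all 32851 promoters searched. A match describes letters and is not evidence of binding, and the absence of one elsewhere says only that these letters were not in that window.

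Lonp1, the Lon protease of the mitochondrial matrix, had 109.8, 105 and 115 CPM in the siFem1b/Keap1 libraries, 108, 108 and 115 CPM with siFem1b, 165, 165 and 164 CPM with siKeap1 and 163, 169 and 163 CPM with siCont. It fell to -0.59 ± 0.04 (adjusted p = 1.9e-10) with siFem1b/Keap1 and -0.58 ± 0.04 (adjusted p = 3.7e-10) with siFem1b, and stood at -0.01 with siKeap1, where the groups overlapped. Hspa9, the mitochondrial HSP70 that pulls in imported proteins, had 687, 684 and 651 CPM in the siFem1b/Keap1 libraries, 791, 817 and 800.1 CPM with siFem1b, 961, 946 and 926 CPM with siKeap1 and 1043, 1059.6 and 1083 CPM with siCont. Its 4 groups did not overlap, and it fell in each comparison, by 0.66 with siFem1b/Keap1 (adjusted p = 8.6e-12), by 0.40 with siFem1b (adjusted p = 1.2e-08) and by 0.17 with siKeap1 (adjusted p = 7.5e-04) on the log2 scale. Trap1, the mitochondrial HSP90, had 96.6, 96.4 and 97.4 CPM in the siFem1b/Keap1 libraries, 89.9, 86.3 and 94.8 CPM with siFem1b, 115, 113 and 115 CPM with siKeap1 and 107, 117 and 108 CPM with siCont. It fell to -0.20 (adjusted p = 4.8e-04) and -0.29 (adjusted p = 7.3e-06) and was at 0.05 with siKeap1. The call with siFem1b/Keap1 was lost with library totals alone. Dnaja3, the J-domain partner of the mitochondrial HSP70, was at -0.32 and -0.31, both passing, and 0.01.

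In the ER, 11 of 16 genes passed with siFem1b/Keap1 and 7 of 16 with siKeap1, each of them lower. With siFem1b, 13 were lower and 1 higher. Beside these counts, 33.7% of all genes tested were lower with siFem1b/Keap1 and 23.8% with siKeap1. With siFem1b, 32% of all genes were lower and 30% higher. With library totals alone, siFem1b/Keap1 gave 2 higher and 7 lower. Hspa5, which encodes BiP, the main ER HSP70 and a sensor partner of the unfolded protein response, had 709, 704 and 700.2 CPM in the siFem1b/Keap1 libraries, 698, 757 and 687 CPM with siFem1b, 791, 779.7 and 782 CPM with siKeap1 and 946, 1003 and 1005 CPM with siCont. All libraries with a targeting siRNA were below all siCont libraries, and the log2 fold changes were -0.48 ± 0.04 (adjusted p = 3.3e-09), -0.46 ± 0.04 (adjusted p = 9.2e-09) and -0.33 ± 0.04 (adjusted p = 2.1e-06) with siFem1b/Keap1, siFem1b and siKeap1. Hsp90b1, the ER HSP90 known as GRP94, had 885, 884 and 850.1 CPM in the siFem1b/Keap1 libraries, 970.3, 1018 and 941 CPM with siFem1b, 1076, 1085 and 1072 CPM with siKeap1 and 1273, 1312 and 1345 CPM with siCont. The 4 groups did not overlap, in the order siFem1b/Keap1, siFem1b, siKeap1 and siCont from low to high. Its log2 fold changes were -0.58 ± 0.04 (adjusted p = 1.1e-10), -0.42 ± 0.04 (adjusted p = 1.5e-08) and -0.28 ± 0.04 (adjusted p = 7.1e-06). Canx, the membrane lectin calnexin that holds glycoproteins, had 430.5, 438 and 421 CPM in the siFem1b/Keap1 libraries, 470.3, 510.0 and 457 CPM with siFem1b, 623, 631 and 643 CPM with siKeap1 and 668, 665 and 717 CPM with siCont. It fell most with siFem1b/Keap1, at -0.67 ± 0.04 (adjusted p = 9.5e-11), then with siFem1b, at -0.51 ± 0.04 (adjusted p = 6.3e-09), and the -0.11 ± 0.04 (adjusted p = 0.045) with siKeap1 was lost under 16 of 22 alternatives. Its soluble relative Calr, calreticulin, was at -0.08, -0.12 and -0.09, of which the value with siFem1b passed (adjusted p = 0.019), a call lost under 4 of 22 alternatives.

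The ER genes include those with the ER stress response element (ERSE), the promoter motif through which the unfolded protein response raises BiP. With the letters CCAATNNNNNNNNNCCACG on both strands, 7 of the 31 chaperone genes with a RefSeq promoter had a match in the 250 bases before the start: Calr, Canx, Creld2, Dnajc3, Hsp90b1, Hspa5 and Pdia6. By promoter, 7 of the 37 promoters of these 31 genes had a match, beside 0.113% of all 32851 promoters. All 7 genes are ER genes, and the motif is known from BiP, which Hspa5 of this list encodes. These shares therefore describe letters and are not a test. The related element ERSE-II was matched in 0 of the 37 and in 0.0304% of all promoters. With siKeap1, the 3 ER genes with the smallest p-values were P4hb, Pdia4 and Hspa5, and P4hb and Pdia4 had no match. The 3 ER genes with the smallest p-values with siFem1b, each of which has the motif, are shown with the matches in capitals (RefSeq, GRCm38.p6). Hsp90b1 holds 2 matches in opposite orientations.
Hspa5 (chr2:34772017-34772051, forward strand): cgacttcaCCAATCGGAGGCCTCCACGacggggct
Hsp90b1 (chr10:86705525-86705664, reverse strand): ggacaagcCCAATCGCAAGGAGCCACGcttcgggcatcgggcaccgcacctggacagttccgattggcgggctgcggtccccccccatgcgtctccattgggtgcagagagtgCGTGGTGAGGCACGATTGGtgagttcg
Canx (chr11:50325792-50325826, reverse strand): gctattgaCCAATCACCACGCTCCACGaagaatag
Of the 7 genes with the motif, Hspa5, Hsp90b1 and Creld2 fell in all 3 comparisons, Canx as given above, and Pdia6 fell with siFem1b/Keap1 (-0.11) and siFem1b (-0.24). Calr passed with siFem1b alone, at -0.12, a call lost under some alternatives. Dnajc3, an ER J-domain protein that also inhibits eIF2-alpha kinases, fell with siFem1b (-0.25 ± 0.04, adjusted p = 1.3e-05) and was at -0.03 with siFem1b/Keap1 and 0.04 with siKeap1. With library totals alone the siFem1b/Keap1 values of Pdia6 and Dnajc3 turned positive, to 0.01 and 0.09. Of the ER genes searched that had no match, Pdia3, Pdia4, Sdf2l1 and Dnajb11 also fell with siFem1b. P4hb rose and Dnajb9 did not pass there, as given below. Genes with and without the motif were not compared by a test.

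The protein disulfide isomerases, which form and rearrange disulfide bonds, did not move together. P4hb, the founding member and a subunit of prolyl 4-hydroxylase, had 816, 842 and 842 CPM in the siFem1b/Keap1 libraries, 1073, 1085 and 1077 CPM with siFem1b, 699, 700.5 and 715 CPM with siKeap1 and 890.4, 921 and 918 CPM with siCont. The 4 groups did not overlap, with siFem1b on top and siKeap1 at the bottom. It was the ER gene that rose with siFem1b, by 0.25 ± 0.03 (adjusted p = 3.5e-06), and it fell with siKeap1, at -0.37 ± 0.03 (adjusted p = 4.6e-08), and with siFem1b/Keap1, at -0.13 ± 0.03 (adjusted p = 0.0026), a call lost with library totals alone. Pdia4 had 156, 162 and 155 CPM in the siFem1b/Keap1 libraries, 164, 161 and 159 CPM with siFem1b, 162, 164 and 164 CPM with siKeap1 and 196, 201 and 203 CPM with siCont. Its 3 targeting groups overlapped one another below siCont, with log2 fold changes of -0.35 ± 0.03 (adjusted p = 4.1e-08), -0.31 ± 0.03 (adjusted p = 2.2e-07) and -0.29 ± 0.03 (adjusted p = 1.3e-06). Pdia3, the isomerase that works with calnexin and calreticulin, fell with siFem1b to -0.17 (adjusted p = 5.7e-04) and did not pass with siFem1b/Keap1 (-0.06) or siKeap1 (-0.04), and the call with siFem1b was lost with library totals alone. Hyou1, the ER HSP110, was at -0.29, -0.31 and -0.07 with siFem1b/Keap1, siFem1b and siKeap1, and Hspa13, an HSP70 relative of microsomes, at -0.39, -0.32 and 0.05, and in both genes the first 2 values passed. Creld2, an ER protein with isomerase activity that is induced by ER stress, fell to -0.32, -0.23 and -0.22, and Manf, a secreted stress-induced factor that binds BiP, to -0.19 with siFem1b/Keap1 and -0.19 with siKeap1, of which the call with siFem1b/Keap1 was lost with library totals alone. Sdf2l1 was at -0.21 (adjusted p = 0.016) and -0.32 (adjusted p = 8.9e-04) with siFem1b/Keap1 and siFem1b, and -0.08 with siKeap1, and the call with siFem1b/Keap1 was lost under 4 of 22 alternatives. Among the J-domain proteins that serve BiP, Dnajb11 passed with siFem1b at -0.19, a call lost with library totals alone, and Dnajb9, a typical target of the unfolded protein response, passed in none of the comparisons, at 0.17, 0.02 and 0.12.

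Where both groups carried the Keap1 siRNA, the siRNA against Fem1b lowered most chaperone genes, and where both carried the Fem1b siRNA, the siRNA against Keap1 raised more of them than it lowered. In siFem1b/Keap1 against siKeap1, 3 of 40 were higher and 24 lower, or 7.5% and 60.0%, beside 32% and 31.5% of all genes. Library totals alone gave 6 higher and 20 lower, and with only the groups compared in the fit 5 were higher. The largest falls there were those of Hspd1 (-0.80 ± 0.04, adjusted p = 2.9e-12), Hspe1 (-0.66), Hsph1 (-0.64), Hsp90ab1 (-0.59) and Lonp1 (-0.58), and the genes that were higher were Dnajb4 (0.33), Hspa4l (0.26) and P4hb (0.24). All 6 mitochondrial genes were lower. In siFem1b/Keap1 against siFem1b, 13 were higher and 5 lower, or 32.5% and 12.5%, beside 21.3% and 21.8% of all genes. The number higher was 19 with library totals alone and 8 without siFem1b replicate 3, with 5 lower in both. The higher ones included Hspb8 (0.49 ± 0.04, adjusted p = 4.6e-09), Cryab (0.40), Hsph1 (0.38), Dnajb4 (0.33) and Bag3 (0.24). The lower ones were Hspa1a (-0.60), which did not pass with Hspa1b added, P4hb (-0.37), Hspa9 (-0.25), Hsp90b1 (-0.16) and Canx (-0.16).

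Whether the siKeap1 effect was the same with and without siFem1b was tested by the interaction, the log2 fold change of siFem1b/Keap1 over siFem1b less that of siKeap1 over siCont. It passed for 4 genes upward and 4 downward of the 40, or 10.0% each, beside 6.1% and 5.31% of all genes. In Cryab the siKeap1 effect was 0.40 with siFem1b and 1.01 without it, an interaction of -0.61 ± 0.10 (adjusted p = 0.0017). In Hspa1b it was -0.04 and 0.48, an interaction of -0.53 ± 0.06 (adjusted p = 2.1e-05), and the summed pair gave -0.57 (adjusted p = 8.7e-06). With siFem1b present, the summed pair stood at -0.09 in siFem1b/Keap1 against siFem1b (adjusted p = 0.14). Hspa1a alone gave -1.07 ± 0.17 (adjusted p = 3.4e-04). Hspb8 kept a rise in both settings, 0.49 and 0.71, with an interaction of -0.22 ± 0.05 (adjusted p = 0.0073). The ER genes that passed, 3 of 16, had the opposite sign. Hspa5 was at -0.02 with siFem1b and -0.33 without it (0.31 ± 0.06, adjusted p = 0.0012), and Pdia4 at -0.03 and -0.29 (0.26 ± 0.05, adjusted p = 0.0014). Neither gene passed in siFem1b/Keap1 against siFem1b. Hspa4l gave 0.35 ± 0.08 (adjusted p = 0.0055), and Dnajc3 gave 0.19 ± 0.05 (adjusted p = 0.034), a call lost under 15 of 21 alternatives. P4hb lay close to the sum of the separate effects, with -0.37 and -0.37 and an interaction of 0.00 ± 0.05 (adjusted p = 0.97). The 6 mitochondrial and 2 HSP90 genes gave interactions between -0.08 (Hspa9) and 0.07 (Hspd1), and 0 of the 8 passed in edgeR's test, in DESeq2's or at an unadjusted p of 0.05, where the smallest was 0.12.

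**Figure D5:**
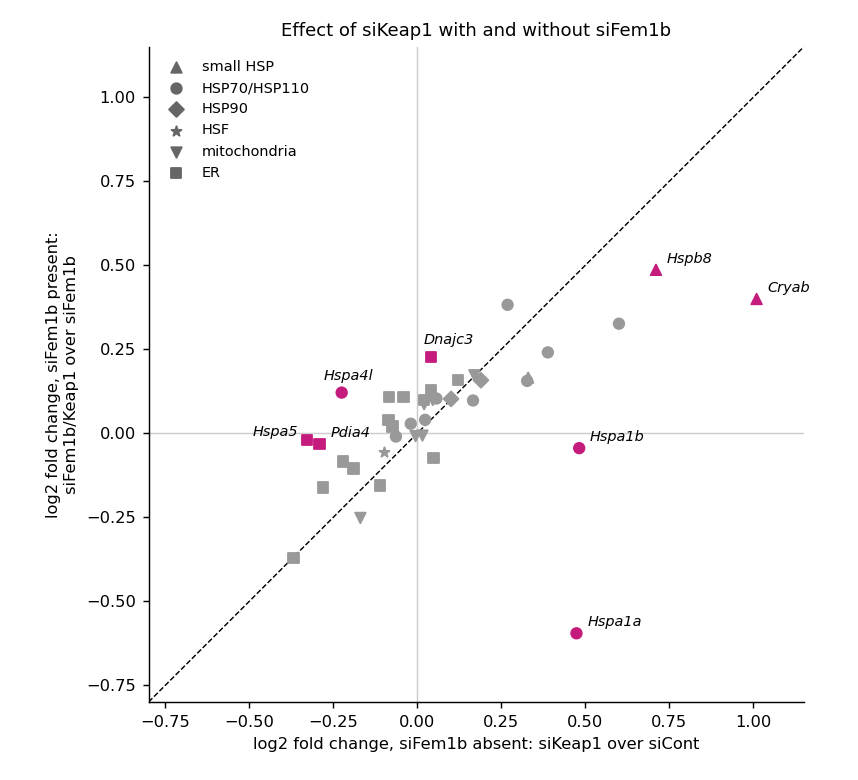
Log2 fold change of each chaperone gene for siFem1b/Keap1 over siFem1b (y axis) against that for siKeap1 over siCont (x axis); marker shapes give the compartment, named genes in magenta passed the interaction, and the dashed line marks equal effects. Cryab, Hspb8, Hspa1a and Hspa1b lie below the line and Hspa5, Pdia4, Hspa4l and Dnajc3 above it.

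The neighbouring folding pathways were counted from further lists of genes that act with these chaperones. Among all genes tested, 33.8% were higher and 33.7% lower with siFem1b/Keap1, 30% and 32% with siFem1b, and 18.4% and 23.8% with siKeap1, with medians of 0.01, -0.01 and -0.02. Of the 13 subunits of the cytosolic folding chamber TRiC and its helper prefoldin, 9 passed with siFem1b/Keap1, 11 with siFem1b and 2 with siKeap1, each of them lower, with medians of -0.35, -0.40 and -0.03. With library totals alone, an alternative chosen for these lists after seeing the data, 1 was higher and 8 lower with siFem1b/Keap1, 1 and 9 with siFem1b, and 1 and 2 with siKeap1. Cct5 fell to -0.53 with siFem1b/Keap1 and -0.60 with siFem1b. Cct3 had the largest fall of the list with siFem1b/Keap1 and with siKeap1, at 209 CPM with siFem1b/Keap1, 364 with siFem1b, 266 with siKeap1 and 513 with siCont, or -1.29, -0.49 and -0.95, while Cct5 was at -0.03 with siKeap1. Of 16 cytosolic cochaperones, 4 were higher and 9 lower with siFem1b/Keap1, 1 higher and 12 lower with siFem1b, and 7 higher and 4 lower with siKeap1, with medians of -0.16, -0.26 and 0.09. Library totals alone gave 6 higher and 7 lower with siFem1b/Keap1, 2 and 9 with siFem1b, and 8 and 3 with siKeap1. The medians were then -0.04, -0.16 and 0.12. Fkbp4, an HSP90 cochaperone of steroid receptors, was at -0.81, -0.76 and -0.16, and Ahsa1, which stimulates the HSP90 ATPase, at -0.43 with siFem1b/Keap1 and -0.65 with siFem1b. Bag2, which inhibits the ubiquitin ligase CHIP, changed sign, with -0.59 with siFem1b and 0.60 with siKeap1. Of 15 genes of the mitochondrial proteases and import motor, 1 was higher and 9 lower with siFem1b/Keap1, 11 passed with siFem1b, each lower, and 3 were higher and 3 lower with siKeap1, with medians of -0.29, -0.29 and -0.08. Scaling by library totals alone gave 3 higher and 9 lower with siFem1b. The prohibitin Phb2 fell to -0.63 and -0.59, and Atf5, a transcription factor of the mitochondrial stress response, to -0.62 with siFem1b/Keap1.

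Genes of the unfolded protein response were called in both directions, and the shares of all genes given for the neighbouring pathways stand beside these counts too. Of 14 sensors and transcription factors, 6 were higher and 7 lower with siFem1b/Keap1, 6 and 5 with siFem1b, and 2 and 7 with siKeap1, with medians of -0.13, -0.04 and -0.08. With library totals alone these counts were 6 and 6 with siFem1b/Keap1, 6 and 3 with siFem1b, and 2 and 7 with siKeap1. Atf4, the factor translated when eIF2-alpha is phosphorylated, fell to -0.90, -0.35 and -0.35. Its target Trib3 was at 6.5 CPM with siFem1b/Keap1 and 16.7 CPM with siCont (-1.36 ± 0.07, adjusted p = 1.5e-12), and Ddit3, which encodes CHOP, fell to -0.51 with siKeap1. The sensor kinase gene Eif2ak3, PERK, rose with siFem1b/Keap1 (0.47) and siFem1b (0.44) and fell with siKeap1 (-0.32). Of the transcription factor genes, Creb3 was at 0.66, 0.45 and 0.19 with siFem1b/Keap1, siFem1b and siKeap1. Creb3l2 was at 0.35, 0.55 and -0.21, and all these values of both genes passed. Of 16 genes of ER-associated degradation, 7 were higher and 3 lower with siFem1b/Keap1, 8 and 3 with siFem1b, and 2 and 4 with siKeap1, with medians of 0.03, 0.14 and -0.02. Library totals alone gave 8 higher and 3 lower with siFem1b/Keap1, 9 and 1 with siFem1b, and 2 and 4 with siKeap1. Edem1, a lectin that extracts misfolded glycoproteins, rose to 0.38 and 0.44 with siFem1b/Keap1 and siFem1b, and Syvn1, the HRD1 ligase, to 0.36 and 0.28, while Herpud1, which organises that ligase, fell to -0.38 with siFem1b/Keap1 and -0.30 with siKeap1. Of 14 genes of ER oxidation and collagen folding, 5 were higher and 7 lower with siFem1b/Keap1, 2 and 9 with siFem1b, and 7 passed with siKeap1, each lower, with medians of -0.14, -0.13 and -0.13. On library totals alone, 4 were higher and 5 lower with siFem1b. The isomerase Txndc5 fell to -1.09 and -0.89, and P4ha1, the catalytic partner of P4hb in prolyl 4-hydroxylase, to -0.65, -0.39 and -0.48.

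The sequences of the siRNAs bear on individual genes, since bases 2 to 8 of a guide strand can pair with other transcripts. The deposited sense strands of the siRNAs are shown with the bases in capitals that a matching 3′ UTR would share.
siFem1b: gaagaucagugCAGAAUUa
siKeap1: gcgccaauguuGACACGGa
In the 3′ UTR of the main transcript of 39 chaperone genes, the siFem1b seed had a match in Canx, beside 11.8% of 10693 genes searched, and the siKeap1 seed in Dnaja3, Hspa1a and Hsph1, beside 2.45%. Canx fell with siFem1b by 0.51 on the log2 scale. Hsph1 and Hspa1a were higher with siKeap1, the call of Hspa1a being lost with the first run alone, and Dnaja3 was at 0.01. The siCont seed had matches in Dnaja2, Dnajb9 and Hspa13, beside 22.9% of genes. The part of these matches in the values was not tested.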

How the data were processed

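Poly(A)-selected RNA was sequenced for 12 numbered replicates, here called libraries, each with 2 sets of counts, here called runs. The labels mark the second as a technical replicate and do not say whether it came from the same library. The submitters' processing notes name kallisto 0.44.0 and the mouse build mm10. Each of the 24 deposited tables gives, per transcript, the estimated count that the authors obtained, in which reads fitting several transcripts are shared out by an estimate, and the deposited TPM, which corrects for effective transcript length. Trimming and filters before that step are not given in the sources used here.

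Of 118489 transcripts, 98.6% had their identifier in GENCODE M21 (GRCm38), and the rest, with 0.587% to 0.619% of counts, were left out. The estimated counts were summed per gene and over both runs and rounded. Within its group, each of the 12 second runs resembled its own first run most. Correlations of deviations from the group mean were 0.135 to 0.589. For siFem1b/Keap1 replicate 2 the margin was small, at 0.135 beside 0.106 for another first run. Chi-square per degree of freedom between the 2 runs of a library was 2.34 to 2.87, above counting noise alone. Groups came from the labels. Genes passing filterByExpr were fitted with edgeR 4.0.16 (R 4.3.3; TMM factors 0.952 to 1.04; 1 model over all groups, robust quasi-likelihood tests, two-sided, Benjamini-Hochberg adjustment over 14584 genes, threshold 0.05). The common biological coefficient of variation was 0.0504. The test was tested on simulated data. Sequencing depth limits the precision of genes with few counts, such as Hspa1a. Summed TPM per compartment was described and not tested. Near-identical copies were found with blastn 2.17.0. Promoter windows came from RefSeq (GRCm38.p6).

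The chaperone genes, the further lists and the marker lists were chosen with earlier results of these data known. All 40 chaperone genes are named. From each further list, genes were named from the up to 4 with the smallest p-values in each comparison with siCont. Values per library are given for the 3 smallest p-values per compartment in those comparisons and for interactions past 1.5-fold. Cct6a was not matched and is not reported. Replicate numbers did not pair the samples (correlations of deviations between -0.078 and 0.115), so no block was used. Alternatives were other scalings, DESeq2 1.42.0, no filter, each run alone, a length offset, a replicate block, the compared groups alone, added copies, and each library left out. For the further lists, library totals alone were tried, chosen after seeing the data.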

Additional observations from a re-analysis of the deposited data

Results flagged for a closer look

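In 8 chaperone genes the effect of siKeap1 differed between cells with and without siFem1b by the interaction test of edgeR's quasi-likelihood model (adjusted p under 0.05, n = 3 libraries in each of 4 groups). The differences, siKeap1 effect with siFem1b minus the effect without it on the log2 scale, were -1.07 for Hspa1a and -0.53 for Hspa1b, a near-identical pair whose summed counts gave -0.57. They were -0.61 for Cryab and -0.22 for Hspb8, both small heat shock proteins, and the value of Hspb8 did not pass with the first run alone. In the opposite direction they were 0.31 for Hspa5, 0.26 for Pdia4, 0.35 for Hspa4l and 0.19 for Dnajc3, and that of Dnajc3 did not pass under 15 of 21 alternatives.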

How the results depend on the processing

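The number of chaperone genes called, in both directions together, stayed within 1.5 times its main value in each of the 6 comparisons under every alternative run. Of 5240 values of the 240 gene results under alternatives, 5017 kept the call or its absence, 115 lost the call, 106 gained one and 2 reversed. The 5017 include 139 values that changed sign where neither fit made a call, none larger in size than 0.092. Both reversals came with library totals alone, for siFem1b/Keap1 against siCont, at 0.09 for Dnajc3 and 0.0125 for Pdia6. That scaling shifts the median of all genes by 0.098 for siFem1b and 0.123 for siFem1b/Keap1 against siCont and by 0.095 for siFem1b/Keap1 against siKeap1. Leaving out 1 library gave 30 to 33 called chaperone genes for siFem1b/Keap1, 33 to 34 for siFem1b and 19 to 22 for siKeap1 against siCont, and 1257 to 1887 genes overall for the interaction. The interaction called 1665 of all genes, 929 with the first run alone and 839 with a length offset, and the cause was not tested. With the replicate block the chaperone counts were 32 for siFem1b/Keap1, 34 for siFem1b and 19 for siKeap1 against siCont, and 7 for the interaction. The compartment sums depend on the unit: as log2 ratios of summed CPM over siCont, for siFem1b/Keap1, siFem1b and siKeap1, the HSP70 system was at -0.17, -0.28 and 0.092 and the mitochondrial genes at -0.65, -0.59 and -0.040. For siFem1b/Keap1 and siFem1b, HSP90 was at -0.43 and -0.56, the small heat shock proteins at 0.28 and 0.047 and the ER genes at -0.30 and -0.23. These moved from the TPM ratios by more than the spread between replicates. By construction, CPM sums are TMM-scaled and give longer transcripts more weight.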
